A study of Caenorhabditis elegans with 12 samples.

Results

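The glutathione and thiol redox genes of Caenorhabditis elegans were followed in whole larvae of the first stage (L1) that had been without food for 48 h, a state in which hatched worms halt development. Members were taken by symbol. They are the glutathione S-transferases of the gst and omega (gsto) series, the glutathione peroxidases (gpx), the peroxiredoxins (prdx), the thioredoxins (trx) and thioredoxin reductases (trxr), the glutamate-cysteine ligase gene gcs-1 and the glutathione reductase gene gsr-1. This gave 67 members among the 46934 genes of the count table: 44 gst, 8 gpx, 5 trx, 3 gsto, 3 prdx and 2 trxr genes, and 1 each of gcs-1 and gsr-1. All are annotated as protein coding.

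Glutathione is a small thiol made in cells by glutamate-cysteine ligase and glutathione synthetase and kept reduced by glutathione reductase. Transferases join it to electrophiles, peroxidases use it or thioredoxin to reduce peroxides, and peroxiredoxins are recharged by thioredoxin, which thioredoxin reductase reduces with NADPH. In worms many of these genes are targets of SKN-1, the ortholog of the mammalian Nrf factors, and gcs-1 and gst-4 are widely used as reporters of it.

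There were 3 strains, each with 4 biological replicates called A to D. PHX2193 carries the allele syb2193 of flp-11 and HBR2340 carries the allele syb1445 of the same gene, while N2 is the wild type. What each allele changes is not given in the labels. The peptides made from flp-11 are released by RIS, an interneuron that is active in sleep. Larvae of every strain came from eggs freed with hypochlorite and kept in M9 buffer. The comparisons ask how the RNA of these genes differed when each flp-11 strain is set against N2, and between both flp-11 strains.

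Total counts per library were 23941071 to 30526360 in PHX2193, 25642142 to 28865328 in HBR2340 and 23068345 to 34832403 in N2. Levels are given as CPM, the counts of a gene relative to the TMM-scaled size of its library, and 3 counts, the floor used here, make 0.0823 to 0.170 CPM. The level of flp-11 was 19.3 to 23.2 CPM in PHX2193, 108 to 142 CPM in HBR2340 and 206 to 367 CPM in N2, so neither flp-11 strain overlapped with N2. In the labelled material, whole larvae, all 10 intestine, 10 body wall muscle, 10 neuron and 8 pharynx markers had enough counts to be tested. The library N2 B stood apart. It lay at -98.4 on the second principal component, which held 26.3% of the variance, and the other 11 libraries lay between -23.3 and 37.2. On the first component, which held 36.6%, N2 B lay at 63.7 and the HBR2340 libraries between 35.3 and 47.4. N2 A, C and D lay between -29.1 and -9.56 there. In N2 B, 26 of the 62 tested members were more than 2-fold away from the average of N2 A, C and D, 8 of them higher and 18 lower, which is 41.9% of the members against 27.3% of all genes tested. For N2 A, C and D the same share was 6.45%, 16.13% and 6.45% of the members, against 6.69%, 8.39% and 10.2% of all genes tested. Beside this, the heat shock genes had a median log2 ratio of 2.47 in N2 B over the other N2 libraries, and the genes induced by the hypoxia factor HIF-1 one of 2.28. The part of these genes in the N2 B values was not tested. Calls of members that change without N2 B are given with and without it.

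Members were called between HBR2340 and each of the other strains, and no member passed the test between PHX2193 and N2. In HBR2340 against N2, 8 of 62 tested members rose and 1 fell, or 12.9% and 1.61% of the members, where 3.34% of all genes tested rose and 4.03% fell. The 8 were 5 gst and 3 gpx genes, and the 1 that fell was the thioredoxin gene trx-3. In PHX2193 against HBR2340, 5 members rose and 15 fell, or 8.06% and 24.2%, where 10.1% of all genes tested rose and 9.39% fell. In PHX2193 against N2, 0 members were called by edgeR in either direction, where 0.163% of all genes tested rose and 0.201% fell. At an unadjusted p under 0.05 there were 13 members in that comparison, which is 20.97% of the members and 11.6% of all genes tested. DESeq2 called 3 members there (gpx-3, gpx-6 and gpx-7) and limma-voom called 0. The median log2 fold change over the tested members was -0.15 in PHX2193 against HBR2340, -0.14 in PHX2193 against N2 and 0.03 in HBR2340 against N2. Over all genes tested these medians were 0.02, -0.01 and -0.04. The 3 comparisons share libraries in pairs, so their values are set side by side below and not counted as separate evidence. A call needs a p under 0.05 in the edgeR quasi-likelihood test after Benjamini-Hochberg adjustment for 15908 genes, and a fold change is given on the log2 scale ± SE. In bulk RNA from whole larvae, fewer cells of a type and less RNA per cell cannot be told apart.

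**Figure D1:**
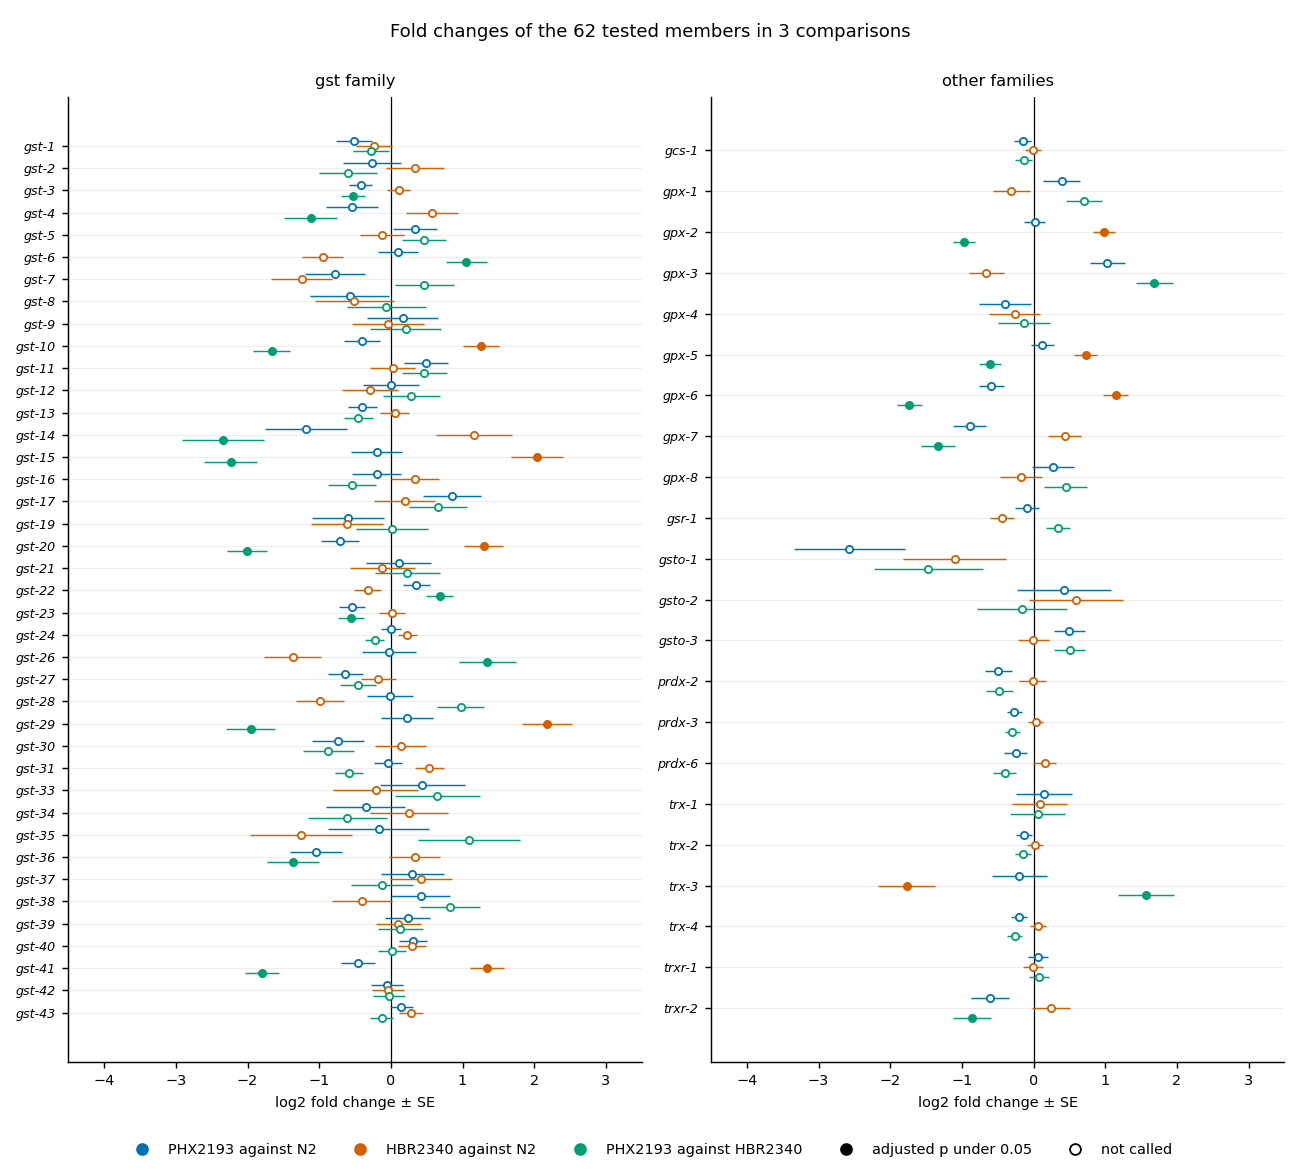
Log2 fold change ± SE (x axis) of each of the 62 tested members (y axis), gst genes on the left and the other families on the right. Colours mark the 3 comparisons and filled points have an adjusted p under 0.05. The filled points are 20 for PHX2193 against HBR2340 and 9 for HBR2340 against N2, with none for PHX2193 against N2.

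The members summed to 1949 to 2408 CPM in PHX2193, 2675 to 2827 CPM in HBR2340 and 2175 to 2926 CPM in N2. Levels of different genes are compared here only per kb of exon. On that scale the peroxiredoxin gene prdx-2 was highest, with a mean of 639 CPM per kb over the 12 libraries. It was followed by gst-20 with 288, gst-5 with 268, trx-2 with 205, gst-6 with 160 and gst-1 with 149 CPM per kb. The 5 members with too few counts to test, trx-5, gst-18, gst-25, gst-32 and gst-44, had means of 0.145 to 0.441 CPM per kb. The median coefficient of variation of the tested members between replicates was 22.9% in PHX2193, 18.1% in HBR2340 and 36.8% in N2, and 16.6% in N2 without N2 B.

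**Figure D2:**
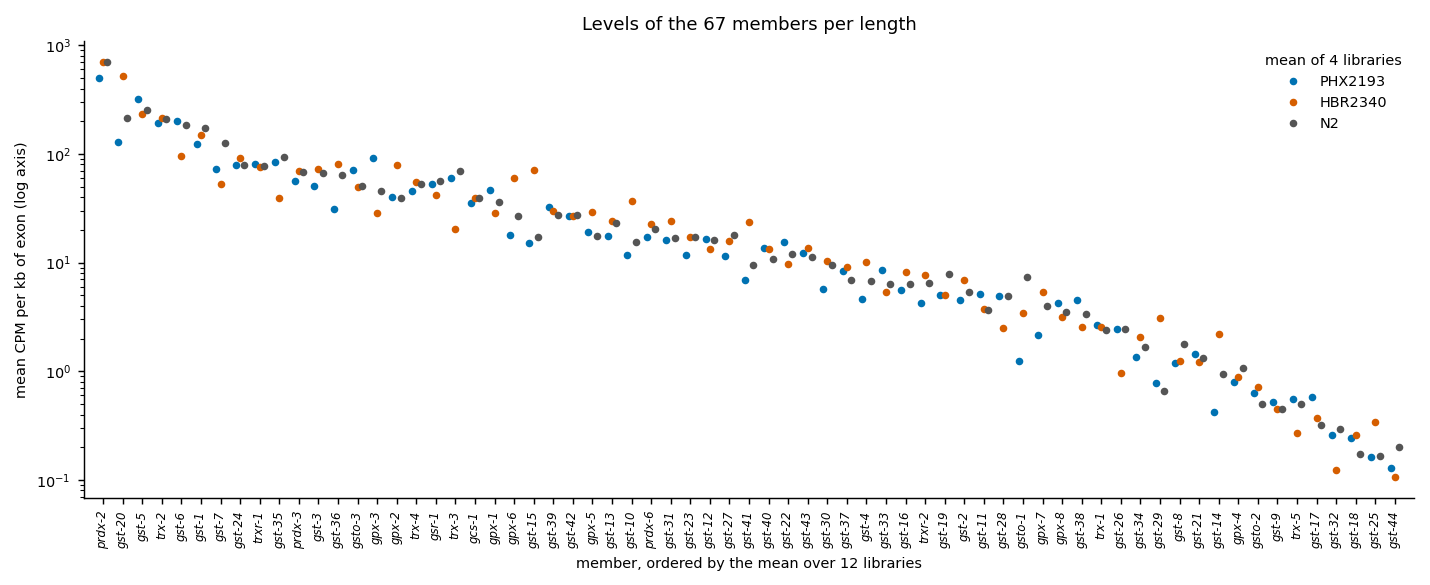
Mean level of each of the 67 members per kb of exon (y axis, log scale, CPM per kb) in each strain, ordered along the x axis by the mean over 12 libraries. The members span from 639 CPM per kb for prdx-2 to 0.145 CPM per kb for gst-44, and gst-20, second in this order, is highest in HBR2340.

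The members of glutathione synthesis and recycling, gcs-1 and gsr-1, were not called with all libraries. The gene gcs-1, on chromosome II, encodes the rate-limiting ligase. It had 87.5, 82.3, 71.8 and 89.1 CPM in PHX2193, 92.4, 95.6, 80.6 and 96.0 in HBR2340, and 99.0, 102, 89.2 and 78.5 in N2, libraries A to D in that order here and below. The 3 strains overlapped, and the log2 fold changes were -0.14 ± 0.11 in PHX2193 against HBR2340, -0.15 ± 0.11 in PHX2193 against N2 and -0.01 ± 0.11 in HBR2340 against N2. The gene gsr-1 had 84.0, 92.9, 76.2 and 80.4 CPM in PHX2193, 71.1, 74.0, 56.3 and 61.7 in HBR2340, and 86.1, 124, 79.6 and 66.6 in N2. All 4 PHX2193 libraries were above all 4 HBR2340 libraries, while N2 overlapped with both. Its change in PHX2193 against HBR2340 was 0.34 ± 0.17 (adjusted p = 0.187 in edgeR), and without N2 B, which also sets the shared spread, 0.35 ± 0.11 (adjusted p = 0.0231). In HBR2340 against N2 it was -0.44 ± 0.17 (adjusted p = 0.151 in edgeR) with all libraries and -0.25 ± 0.12 (adjusted p = 0.163) without N2 B.

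Among the transferases, 5 of 40 tested gst genes (12.5%) rose in HBR2340 against N2 and none fell in edgeR with all libraries. Of all genes tested 3.34% rose and 4.03% fell there. Without N2 B, gst-36 was also called higher, and gst-22, gst-26, gst-28 and gst-42 were called lower. Of all genes tested 7.93% then rose and 9.8% fell. With all libraries, DESeq2 called gst-6, gst-7, gst-26 and gst-28 lower there, and limma-voom called gst-6 lower. The most abundant of the 5 that rose in edgeR was gst-20, at chromosome II, 13608154 to 13609824, minus strand, in WBcel235. It had 162, 91.0, 71.8 and 99.7 CPM in PHX2193, 346, 349, 523 and 484 in HBR2340, and 112, 165, 244 and 174 in N2. Every HBR2340 library was above every library of the other strains, which overlapped with each other. The change was 1.29 ± 0.27 in HBR2340 against N2 (adjusted p = 0.0129 in edgeR) and -2.003 ± 0.28 in PHX2193 against HBR2340 (adjusted p = 0.000361). In PHX2193 against N2 it was -0.71 ± 0.27 and not called. The nearby gene gst-15 had 16.37, 11.8, 6.60 and 10.7 CPM in PHX2193, 42.3, 53.5, 63.5 and 54.1 in HBR2340, and 13.4, 4.31, 17.6 and 16.3 in N2. HBR2340 again stood above both other strains without overlap. Its change was 2.04 ± 0.37 in HBR2340 against N2 (adjusted p = 0.00585 in edgeR) and -2.23 ± 0.37 in PHX2193 against HBR2340 (adjusted p = 0.00123).

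HBR2340 was also highest for gst-10, gst-41 and gst-29. The product of gst-10 conjugates 4-hydroxynonenal, an aldehyde made when lipids are oxidised. It had 9.26, 9.81, 5.68 and 8.98 CPM in PHX2193, 18.2, 24.6, 32.2 and 32.2 in HBR2340, and 8.55, 7.78, 13.6 and 14.5 in N2. HBR2340 did not overlap with PHX2193 or N2. The change was 1.26 ± 0.25 in HBR2340 against N2 (adjusted p = 0.00977 in edgeR) and -1.67 ± 0.26 in PHX2193 against HBR2340 (adjusted p = 0.00067). For gst-41, on chromosome V, the values were 7.83, 4.63, 3.03 and 5.62 CPM in PHX2193, 16.6, 18.5, 20.6 and 17.7 in HBR2340, and 7.60, 6.02, 9.02 and 6.28 in N2. They did not overlap between HBR2340 and either other strain, and the changes were 1.34 ± 0.24 (adjusted p = 0.00494) in HBR2340 against N2 and -1.80 ± 0.24 (adjusted p = 0.00027) in PHX2193 against HBR2340, both in edgeR. The gene gst-29 was near the lower end of the tested levels, with 0.589, 0.512, 0.369 and 0.714 CPM in PHX2193, 1.57, 2.18, 2.85 and 1.95 in HBR2340, and 0.391, 0.227, 0.494 and 0.721 in N2. The lowest HBR2340 library was still above the highest library of either other strain. It rose by 2.18 ± 0.35 in HBR2340 against N2 (adjusted p = 0.00277 in edgeR), and its change in PHX2193 against HBR2340 was -1.96 ± 0.35 (adjusted p = 0.00173).

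**Figure D3:**
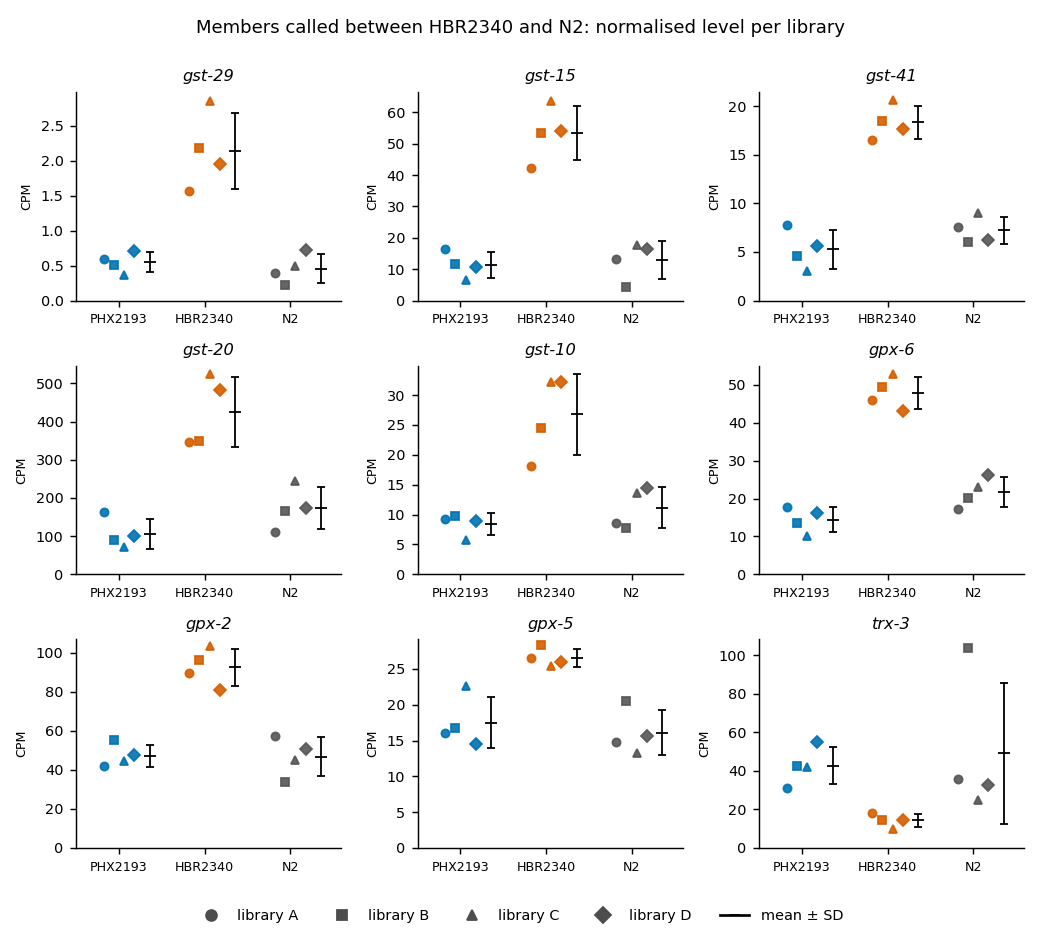
Level in CPM (y axis, from 0) in each library of PHX2193, HBR2340 and N2 for the 9 members called between HBR2340 and N2, with mean ± SD of 4 libraries beside the points. In the first 8 panels all HBR2340 points are above all others, and for trx-3 all HBR2340 points, 10.03 to 18.4 CPM, are below all others. The genes were picked by the test on these same libraries, so their separation is not added support. Of all 15908 genes tested, 1197 had every HBR2340 library above every N2 library, and 1006 had every one below.

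In PHX2193 against HBR2340, 10 of 40 tested gst genes (25%) fell, where 9.39% of all genes tested fell. Of these, 5 had not been called between either strain and N2 with all libraries. The gene gst-36 had 25.7, 25.4, 23.6 and 19.2 CPM in PHX2193, 50.9, 63.2, 73.8 and 55.1 in HBR2340, and 26.8, 102, 35.04 and 29.8 in N2. PHX2193 was below both other strains without overlap, and N2 B was far above the other N2 libraries. The change was -1.37 ± 0.36 in PHX2193 against HBR2340 (adjusted p = 0.0195 in edgeR). Against N2 it was -1.04 ± 0.36 in PHX2193 and 0.33 ± 0.36 in HBR2340, and without N2 B -0.39 ± 0.14 in PHX2193 and 0.98 ± 0.14 (adjusted p = 0.000655) in HBR2340. The gene gst-14 was low, with 0.337, 0.451, 0.0369 and 0.357 CPM in PHX2193, 1.08, 1.64, 1.41 and 2.03 in HBR2340, and 0.391, 0.227, 1.18 and 0.859 in N2, and the level of PHX2193 C rests on 1 count. Its change in PHX2193 against HBR2340 was -2.34 ± 0.57 (adjusted p = 0.0117), and HBR2340 and PHX2193 did not overlap.

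The SKN-1 reporter gene gst-4 had 2.73, 3.82, 2.55 and 4.40 CPM in PHX2193, 6.66, 8.43, 5.67 and 8.73 in HBR2340, and 6.08, 1.48, 6.86 and 5.22 in N2. All PHX2193 libraries were below all HBR2340 libraries, and N2 overlapped with HBR2340 and, through N2 B alone, with PHX2193. The change in PHX2193 against HBR2340 was -1.12 ± 0.37 (adjusted p = 0.048), close to the threshold, and it was called in 8 of 23 other settings. Against N2 the changes were -0.55 ± 0.36 in PHX2193 and 0.57 ± 0.36 in HBR2340 with all libraries, and -0.84 ± 0.22 in PHX2193 and 0.27 ± 0.22 in HBR2340 without N2 B, none of them called. Its annotated span shares 65 bases with dhs-12 on the same strand. The genes gst-3 and gst-23 were also close to the threshold. The values of gst-3 were 42.7, 29.9, 33.3 and 39.4 CPM in PHX2193, 52.1, 55.9, 48.2 and 53.6 in HBR2340, and 36.2, 65.8, 46.4 and 46.4 in N2. Those of gst-23 were 10.35, 8.55, 6.16 and 7.85 CPM in PHX2193, 11.9, 11.2, 12.9 and 12.4 in HBR2340, and 8.29, 14.2, 12.9 and 12.5 in N2. For both, PHX2193 and HBR2340 did not overlap and N2 overlapped with both. Their changes in PHX2193 against HBR2340 were -0.53 ± 0.16 (adjusted p = 0.0389) for gst-3 and -0.56 ± 0.18 (adjusted p = 0.0494) for gst-23 in edgeR, and they were called in 12 and 8 of 23 other settings.

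In the opposite direction, 3 of 40 tested gst genes (7.5%) rose in PHX2193 against HBR2340, where 10.1% of all genes tested rose. The most abundant was gst-6, on chromosome II, 4879891 to 4881105, with 138, 118, 139 and 215 CPM in PHX2193, 85.6, 111, 40.8 and 56.8 in HBR2340, and 177, 137, 141 and 114 in N2. HBR2340 was below both other strains without overlap, and PHX2193 and N2 overlapped. The change was 1.06 ± 0.28 in PHX2193 against HBR2340 (adjusted p = 0.0194 in edgeR) and -0.95 ± 0.28 in HBR2340 against N2 (adjusted p = 0.0602). The gene gst-26 had 1.26, 1.78, 1.70 and 1.96 CPM in PHX2193, 0.871, 0.858, 0.458 and 0.447 in HBR2340, and 1.87, 0.568, 2.19 and 2.13 in N2. The gene gst-22 had 10.31, 10.29, 12.8 and 11.6 CPM in PHX2193, 7.70, 7.22, 5.53 and 7.67 in HBR2340, and 8.47, 5.73, 10.9 and 9.99 in N2. For both, all PHX2193 libraries were above all HBR2340 libraries, and N2 B was the lowest of the N2 libraries. Their changes in PHX2193 against HBR2340 were 1.34 ± 0.40 (adjusted p = 0.0316) for gst-26 and 0.68 ± 0.19 (adjusted p = 0.0254) for gst-22.

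**Figure D4:**
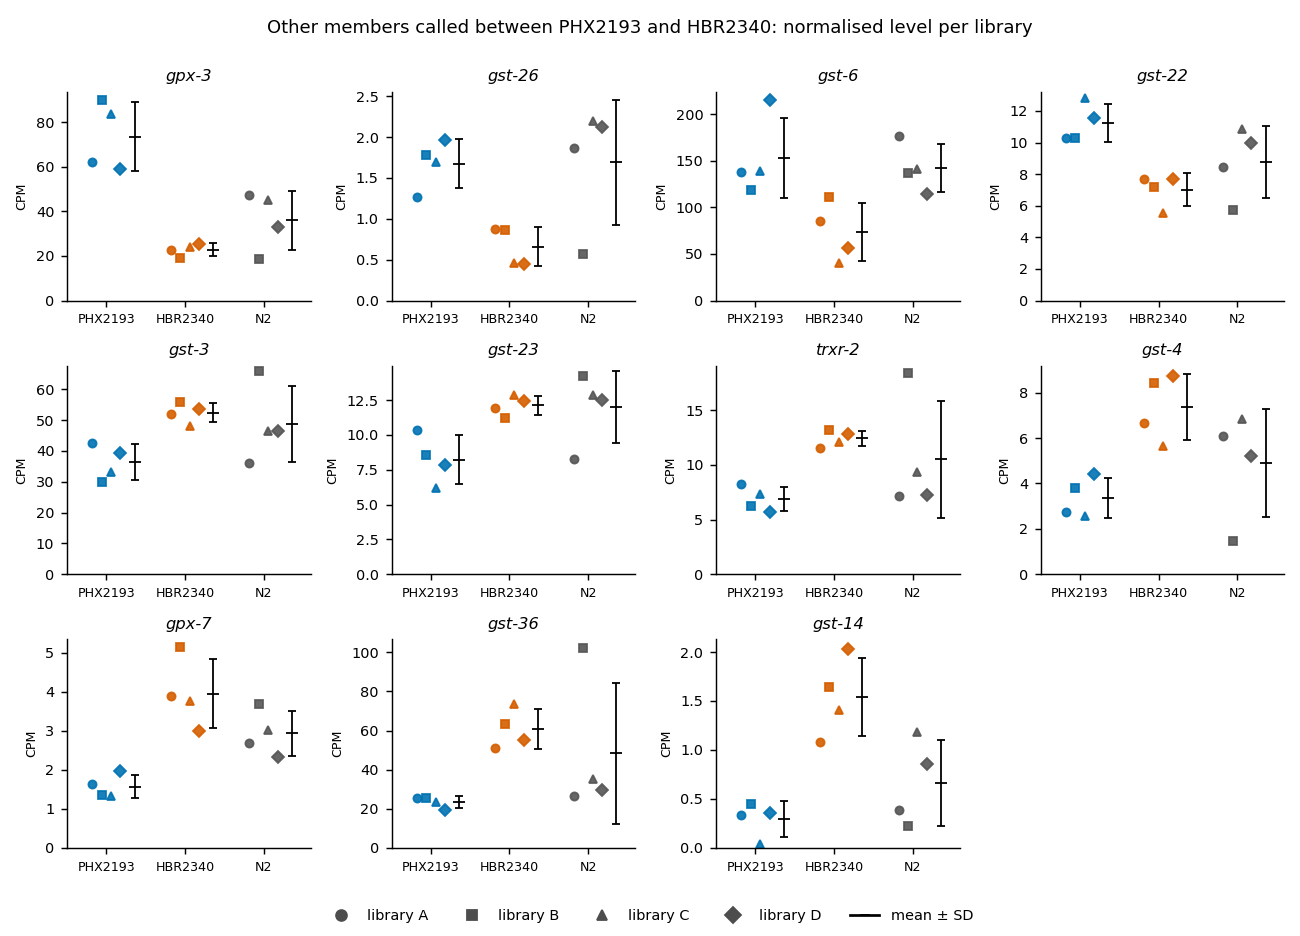
Level in CPM (y axis, from 0) in each library of PHX2193, HBR2340 and N2 for the other 11 members called between PHX2193 and HBR2340, with mean ± SD of 4 libraries beside the points. PHX2193 is above HBR2340 without overlap for gpx-3, gst-26, gst-6 and gst-22 and below it without overlap for the other 7. N2 B is apart from the other N2 libraries in several panels. For gst-36 and trxr-2 it is above them, at 102 and 18.4 CPM. For gst-4, gst-26 and gpx-3 it is below them, at 1.48, 0.568 and 18.6 CPM. These genes too were picked by the test on the same libraries. Of all 15908 genes tested, 2795 had every PHX2193 library above every HBR2340 library, and 2853 had every one below.

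The 27 tested gst genes not called in any comparison with all libraries included abundant ones. The gene gst-5, among the 3 highest per kb of all members, averaged 231 ± 62.5 CPM in PHX2193, 168 ± 44.9 CPM in HBR2340 and 183 ± 78.4 CPM in N2 (SD, n = 4 here and below), and its strains overlapped. The gene gst-35 varied widely among the libraries of N2, with 53.0, 8.003, 174 and 53.2 CPM in A to D, and averaged 64.5 ± 35.3 CPM in PHX2193, 30.3 ± 15.2 CPM in HBR2340 and 72.1 ± 71.4 CPM in N2. The zeta class gene gst-42, whose enzyme acts in tyrosine breakdown, varied least within PHX2193. It averaged 27.03 ± 2.05 CPM in PHX2193, 27.5 ± 1.81 CPM in HBR2340 and 28.1 ± 9.85 CPM in N2, and N2 B alone was at 13.4 CPM. The 3 omega class genes, glutathione transferases with an active-site cysteine, had no call with all libraries. In PHX2193 against HBR2340 without N2 B, edgeR called gsto-1 lower (-1.47 ± 0.40, adjusted p = 0.0136) and gsto-3 higher (0.51 ± 0.16, adjusted p = 0.0241). With all libraries these changes were -1.47 (adjusted p = 0.213 in edgeR) and 0.50 (adjusted p = 0.133). The gene gsto-3 was the most abundant of the 3, with 66.1 ± 6.14 CPM in PHX2193, 46.6 ± 9.71 CPM in HBR2340 and 46.8 ± 15.7 CPM in N2. The intestinal gene gsto-1 averaged 1.01 ± 0.761 CPM in PHX2193, 2.75 ± 0.786 CPM in HBR2340 and 5.99 ± 7.89 CPM in N2, and N2 B had 17.8 CPM where the other N2 libraries had 1.68 to 2.25 CPM. Its change in PHX2193 against N2 was -2.57 ± 0.77 with N2 B and -1.05 ± 0.43 without it, not called in either case. The gene gsto-2 was near the floor in some libraries and averaged 0.538 ± 0.361 CPM in PHX2193, 0.610 ± 0.384 CPM in HBR2340 and 0.427 ± 0.311 CPM in N2.

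The glutathione peroxidases had the largest share of called members. Of the 8 gpx genes, 3 rose and none fell in HBR2340 against N2, where 3.34% of all genes tested rose and 4.03% fell. In PHX2193 against HBR2340, 1 rose and 4 fell, where 10.1% of all genes tested rose and 9.39% fell. With 8 genes here, and fewer in every family but gst, shares by family are coarse. The genes gpx-1, gpx-2, gpx-6 and gpx-7 encode the worm relatives of mammalian GPX4, which reduces phospholipid hydroperoxides. The gene gpx-6, on chromosome IV, had the smallest adjusted p of all members in both comparisons with calls. Its levels were 17.7, 13.6, 10.1 and 16.3 CPM in PHX2193, 46.1, 49.5, 53.0 and 43.0 in HBR2340, and 17.2, 20.1, 23.2 and 26.2 in N2. HBR2340 did not overlap with the other strains. Its change was 1.14 ± 0.17 (adjusted p = 0.00182) in HBR2340 against N2 and -1.73 ± 0.17 (adjusted p = 3.75e-05) in PHX2193 against HBR2340. In PHX2193 against N2 it was -0.59 ± 0.17, which edgeR did not call.

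The gene gpx-2 had 42.1, 55.2, 44.6 and 47.4 CPM in PHX2193, 89.7, 96.4, 104 and 81.1 in HBR2340, and 57.4, 34.0, 45.4 and 50.6 in N2. HBR2340 was above both other strains without overlap, and these overlapped with each other. The change was 0.98 ± 0.15 (adjusted p = 0.00205) in HBR2340 against N2, -0.97 ± 0.15 (adjusted p = 0.000758) in PHX2193 against HBR2340 and 0.02 ± 0.15 in PHX2193 against N2. For gpx-7 the levels were lower, at 1.64, 1.35, 1.33 and 1.96 CPM in PHX2193, 3.90, 5.15, 3.77 and 3.004 in HBR2340, and 2.69, 3.69, 3.02 and 2.34 in N2. PHX2193 was below both other strains without overlap, and its change was -1.33 ± 0.24 (adjusted p = 0.00177) against HBR2340 and -0.89 ± 0.24 against N2 (adjusted p = 0.137 in edgeR). The gene gpx-1 averaged 26.5 ± 6.91 CPM in PHX2193, 16.3 ± 5.83 CPM in HBR2340 and 20.2 ± 4.39 CPM in N2. It was not called by edgeR with all libraries. Its change in PHX2193 against HBR2340 was 0.70 ± 0.26 (adjusted p = 0.0746 in edgeR). DESeq2 called it higher there, as did edgeR without HBR2340 B.

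The genes gpx-5 and gpx-3 lie next to each other on chromosome X, with 1597 bases between them on the plus strand, and had opposite signs in PHX2193 against HBR2340. The gene gpx-5 had 16.113, 16.8, 22.6 and 14.4 CPM in PHX2193, 26.6, 28.4, 25.4 and 25.9 in HBR2340, and 14.8, 20.5, 13.3 and 15.7 in N2. HBR2340 was highest without overlap, with a change of 0.73 ± 0.16 (adjusted p = 0.0145) in HBR2340 against N2 and of -0.60 ± 0.16 (adjusted p = 0.0162) in PHX2193 against HBR2340. The gene gpx-3 had 62.01, 90.01, 83.6 and 58.8 CPM in PHX2193, 22.8, 19.0, 24.3 and 25.5 in HBR2340, and 47.6, 18.6, 45.1 and 32.9 in N2. Here PHX2193 was above both other strains without overlap, while N2 B was below all HBR2340 libraries and the other N2 libraries were above them. The change was 1.69 ± 0.25 (adjusted p = 0.000583) in PHX2193 against HBR2340. Against N2 it was 1.03 ± 0.25 (adjusted p = 0.111) in PHX2193 with all libraries and 0.81 ± 0.17 (adjusted p = 0.0408) without N2 B. In HBR2340 against N2 it was -0.66 ± 0.25 (adjusted p = 0.141) with all libraries and -0.89 ± 0.17 (adjusted p = 0.00383) without N2 B. The low genes gpx-4 and gpx-8 were not called. The level of gpx-4 was 0.879 ± 0.408 CPM in PHX2193, 0.968 ± 0.239 CPM in HBR2340 and 1.16 ± 0.291 CPM in N2. That of gpx-8 was 1.88 ± 0.535 CPM in PHX2193, 1.38 ± 0.392 CPM in HBR2340 and 1.55 ± 0.387 CPM in N2.

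No peroxiredoxin gene was called with all libraries. The cytosolic 2-Cys enzyme gene prdx-2 averaged 382 ± 53.7 CPM in PHX2193, 531 ± 42.3 CPM in HBR2340 and 536 ± 172 CPM in N2. The mitochondrial gene prdx-3 averaged 43.2 ± 3.85 CPM in PHX2193, 53.2 ± 1.83 CPM in HBR2340 and 52.1 ± 7.02 CPM in N2. The 1-Cys gene prdx-6 averaged 13.7 ± 1.93 CPM in PHX2193, 18.1 ± 0.572 CPM in HBR2340 and 16.3 ± 4.20 CPM in N2. For each of the 3, all PHX2193 libraries were below all HBR2340 libraries. This held for 23 of the 62 tested members and for 2853 of the 15908 genes tested. The changes in PHX2193 against HBR2340 were -0.48 ± 0.19 (adjusted p = 0.101) for prdx-2, -0.30 ± 0.11 (adjusted p = 0.0702) for prdx-3 and -0.40 ± 0.16 (adjusted p = 0.107) for prdx-6. Without N2 B they were -0.46 ± 0.11 (adjusted p = 0.00537) for prdx-2, -0.29 ± 0.08 (adjusted p = 0.0185) for prdx-3 and -0.39 ± 0.11 (adjusted p = 0.0134) for prdx-6, where edgeR called all 3. The fold changes were nearly the same without N2 B, and their SE was smaller.

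Of the thioredoxins, trx-3, known from the intestine, was the only member called lower in HBR2340 against N2 with all libraries. It lies on chromosome IV, 4487028 to 4489000, and had 31.3, 42.3, 42.1 and 55.1 CPM in PHX2193, 18.4, 14.7, 10.03 and 14.5 in HBR2340, and 35.8, 103, 24.7 and 32.7 in N2. HBR2340 was below both other strains without overlap, and N2 B was far above the other N2 libraries. The change in HBR2340 against N2 was -1.77 ± 0.40 (adjusted p = 0.0194) with all libraries and -1.12 ± 0.22 (adjusted p = 0.00457) without N2 B. In PHX2193 against HBR2340 it was 1.57 ± 0.40 (adjusted p = 0.0153), and in PHX2193 against N2 -0.20 ± 0.38 with all libraries and 0.46 ± 0.22 without N2 B, not called in either case. The intestine markers had 1 of 10 called lower in HBR2340 against N2, the intestinal GATA factor gene elt-2 (-0.91 ± 0.21, adjusted p = 0.0215), with a list median of -0.35. Without N2 B, 4 of the 10 were called lower there, where 9.8% of all genes tested fell. In PHX2193 against HBR2340, 4 were then called higher, where 17.3% of all genes tested rose. The 10 markers summed to 4448 to 4658 CPM in PHX2193, 2895 to 4499 CPM in HBR2340 and 3560 to 6214 CPM in N2, and their part in the trx-3 values was not tested. The mitochondrial thioredoxin gene trx-2 averaged 100.4 ± 11.3 CPM in PHX2193, 111 ± 10.5 CPM in HBR2340 and 110.0 ± 7.22 CPM in N2. The gene trx-4 averaged 18.9 ± 1.55 CPM in PHX2193, 22.7 ± 1.45 CPM in HBR2340 and 21.7 ± 2.64 CPM in N2. Neither was called, nor was trx-1, known from the ASJ sensory neurons, which averaged 1.71 ± 0.368 CPM in PHX2193, 1.64 ± 0.596 CPM in HBR2340 and 1.53 ± 0.721 CPM in N2.

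Of the 2 thioredoxin reductase genes, 1 was called. The gene trxr-1, which encodes the cytosolic enzyme, a selenoprotein, had 248, 211, 217 and 177 CPM in PHX2193, 191, 203, 195 and 219 in HBR2340, and 193, 241, 220.2 and 162 in N2. The strains overlapped, with changes of 0.08 ± 0.14 in PHX2193 against HBR2340, 0.06 ± 0.14 in PHX2193 against N2 and -0.01 ± 0.14 in HBR2340 against N2. The gene of the mitochondrial enzyme, trxr-2, had 8.25, 6.26, 7.31 and 5.68 CPM in PHX2193, 11.6, 13.2, 12.11 and 12.8 in HBR2340, and 7.12, 18.4, 9.30 and 7.21 in N2. PHX2193 was below HBR2340 without overlap, and N2 B was above every other library. The change was -0.85 ± 0.27 (adjusted p = 0.0392) in PHX2193 against HBR2340. In HBR2340 against N2 it was 0.25 ± 0.26 (adjusted p = 0.659) with all libraries and 0.64 ± 0.15 (adjusted p = 0.00975) without N2 B.

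The calls differed in how many of 23 other settings of the fit, normalisation, filter and libraries they were also made. In HBR2340 against N2, 6 members were called in all 23: gpx-2, gpx-6, gst-10, gst-15, gst-29 and gst-41. The call of gst-20 was made in 22 (adjusted p = 0.0898 in edgeR without N2 B and the D libraries of N2 and PHX2193), that of gpx-5 in 21 and that of trx-3 in 18. In PHX2193 against HBR2340, 10 members were called in all 23, namely these 6 and gpx-3, gpx-7, gst-14 and gst-20. The call of trx-3 was made in 22 settings there, that of gpx-5 in 20, those of gst-6, gst-22 and gst-36 in 18, that of gst-26 in 16 and that of trxr-2 in 15.

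Without N2 B, 10 members rose and 6 fell in HBR2340 against N2, where 7.93% of all genes tested rose and 9.8% fell. These held all 9 members called with it. The 7 gained were gst-36 and trxr-2 higher and gpx-3, gst-22, gst-26, gst-28 and gst-42 lower. The changes of those not given above were -0.49 ± 0.15 for gst-22, -1.66 ± 0.29 for gst-26, -1.27 ± 0.21 for gst-28 and -0.28 ± 0.09 for gst-42. In PHX2193 against HBR2340, 8 members rose and 22 fell without N2 B, where 17.3% of all genes tested rose and 15.6% fell. The 20 called with it were kept, and gsr-1, gst-28 and gsto-3 higher and gst-2, gst-13, gst-31, gsto-1 and the 3 prdx genes lower were gained. In PHX2193 against N2, 1 member was called without N2 B, gpx-3, where 0.739% of all genes tested rose and 0.665% fell.

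The members were unevenly placed in the genome. Of the 67, 29 lie on chromosome II, and 27 lie in 5 runs of neighbouring members with at most 2 other protein genes between them. The first run, of 9 genes from 13608154 to 13630887 on chromosome II, holds gst-20, gst-24, gst-15, gst-14, gst-12, gst-16, gst-19, gst-17 and gst-18 in that order. In it, gst-20 and gst-15 were called in HBR2340 against N2, and these and gst-14 in PHX2193 against HBR2340. The gene gst-24, which lies between gst-20 and gst-15, averaged 58.5 ± 8.45 CPM in PHX2193, 68.5 ± 2.40 CPM in HBR2340 and 58.3 ± 9.75 CPM in N2 and was not called (-0.23 ± 0.13 in PHX2193 against HBR2340). The second run, also of 9 genes, reaches from 15163817 to 15185389 on chromosome II and holds gst-26 and gst-29. These changed in opposite directions in PHX2193 against HBR2340 at a distance of under 5 kb, while gst-27 and gst-28 between them were not called with all libraries. The run from gst-6 to gst-9 had only gst-6 called, and the run of gst-3, gst-2 and gst-4 on chromosome IV had gst-3 and gst-4 called. Reads of similar copies may be split between neighbours, since no source used here says how reads with several matches were counted. The genes gst-17 and gst-18 share 351 exon bases on the same strand, so their values are uncertain. In all, 14 members overlap a gene on the other strand, gst-36, trx-3 and trxr-2 among them, and whether the counting used strand is not given either.

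**Figure D5:**
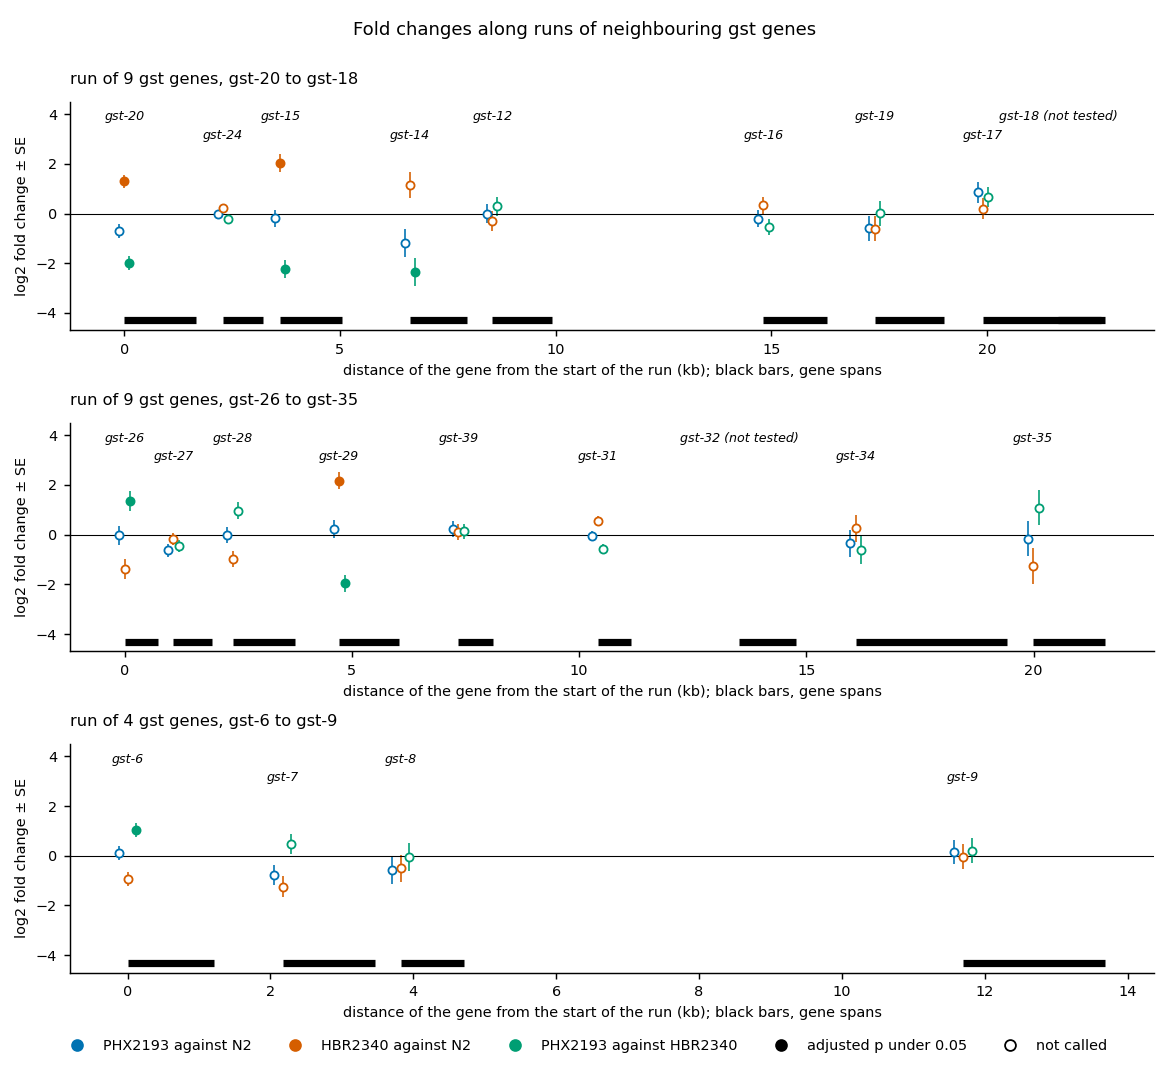
Log2 fold change ± SE (y axis) along the 3 longest runs of neighbouring gst genes, by distance of each gene from the start of its run in kb (x axis), with black bars for the gene spans and filled points for an adjusted p under 0.05. Called genes stand beside genes that were not called, as gst-24 between gst-20 and gst-15, and gst-26 and gst-29 have opposite signs.

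The other genes of the pathway, 58 tested genes in 6 lists, had shares of calls near those of all genes tested. In HBR2340 against N2, 5 were called, or 8.62% against 7.37% of all genes. Between PHX2193 and HBR2340, 11 were called, or 19% against 19.5%, and in PHX2193 against N2 0 were called by edgeR. Without N2 B these 5 and 11 kept their calls, and the counts were 13 (22.4%, against 17.7% of all genes), 22 (37.9%, against 32.9%) and 1, gstk-2. Of 11 genes that regulate SKN-1, 0 were called in HBR2340 against N2 by edgeR with all libraries. Without N2 B, 1 of the 11 was called higher there, and 3 were called lower in PHX2193 against HBR2340. With all libraries, skn-1 itself was called lower in PHX2193 against HBR2340 (-0.42 ± 0.12, adjusted p = 0.0251 in edgeR). It had 194 ± 19.1 CPM in PHX2193, 261 ± 10.31 CPM in HBR2340 and 204 ± 29.0 CPM in N2. Of 10 genes of transsulfuration and glutathione synthesis, the pathway that supplies cysteine, 2 fell in HBR2340 against N2. They were the cystathionine beta-synthase gene cbs-1 (-0.95 ± 0.26, and -0.61 ± 0.17 without N2 B) and the cystathionine gamma-lyase gene cth-2 (-0.88 ± 0.16). Both rose in PHX2193 against HBR2340 (1.03 ± 0.26 and 0.85 ± 0.16), as did the S-adenosylmethionine synthetase gene sams-1 (0.48 ± 0.12). The level of cth-2 was 183 ± 7.76 CPM in PHX2193, 102 ± 14.7 CPM in HBR2340 and 188 ± 42.6 CPM in N2.

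Of 17 genes of glutaredoxins and other thiol oxidoreductases, dnj-27, which encodes a thioredoxin-domain protein of the endoplasmic reticulum, fell in HBR2340 against N2 (-0.64 ± 0.15). It rose in PHX2193 against HBR2340 (0.59 ± 0.15), as did the glutaredoxin gene glrx-5 (0.74 ± 0.12). Of 5 kappa class transferase and glyoxalase genes, 1 was called higher in HBR2340 against N2, the DJ-1 relative djr-1.2, and 2 lower in PHX2193 against HBR2340, djr-1.2 and gstk-2. The level of djr-1.2 was at or under the floor in PHX2193, 1.71 to 5.60 CPM in HBR2340 and 0.0434 to 0.511 CPM in N2. The kappa class gene gstk-2 averaged 75.5 ± 6.35 CPM in PHX2193, 149 ± 16.36 CPM in HBR2340 and 119 ± 24.4 CPM in N2 (-0.98 ± 0.14 in PHX2193 against HBR2340). Of 5 genes that supply NADPH, the cytosolic isocitrate dehydrogenase gene idh-1 fell in HBR2340 against N2 (-0.85 ± 0.23, and -0.50 ± 0.10 without N2 B), and the mitochondrial transhydrogenase gene nnt-1 fell in PHX2193 against HBR2340 (-0.96 ± 0.25). Of 10 genes of conjugate export and phytochelatin synthesis, 0 were called in HBR2340 against N2 by edgeR with all libraries. Without N2 B, 1 of them was called higher there and 1 lower. The transporter gene mrp-2 (0.61 ± 0.13) and the phytochelatin synthase gene pcs-1 (0.53 ± 0.17) rose in PHX2193 against HBR2340.

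Most markers of body wall muscle were called higher in HBR2340 than in N2 and than in PHX2193. Of 10 such markers, 7 rose and 0 fell in HBR2340 against N2 with a median of 0.89, and 0 rose and 8 fell in PHX2193 against HBR2340 with a median of -1.33. They summed to 4953 to 8745 CPM in PHX2193, 18863 to 20188 CPM in HBR2340 and 8196 to 14707 CPM in N2. The largest change was that of the troponin T gene tnt-2 (2.07 ± 0.18 in HBR2340 against N2), and the myosin gene unc-54 changed by 0.92 ± 0.25. The part of muscle RNA in the values of the members was not tested. Of 9 tested epidermis markers 1 rose and 1 fell in HBR2340 against N2 (median 0.23), and of the 10 neuron markers none was called (median 0.07). The pharynx markers had 1 of 8 called lower there (median 0.01), and the 10 germ cell and embryo markers had 0 called (median -0.78). In PHX2193 against HBR2340 the counts were 1 of 10 intestine markers higher, 1 epidermis marker higher and 1 lower, 1 neuron marker lower, 3 pharynx markers higher and 0 germ cell and embryo markers. In PHX2193 against N2 no marker of these 6 lists was called with all libraries. Without N2 B, 8 muscle markers rose in HBR2340 against N2, 9 fell in PHX2193 against HBR2340 and 1 fell in PHX2193 against N2. In HBR2340 against N2, 4 intestine markers fell without it, and 1 epidermis marker rose and 1 fell. There 1 neuron marker rose, and 4 pharynx markers rose and 3 fell. In PHX2193 against HBR2340, 4 intestine and 2 epidermis markers rose without it, and 1 epidermis and 3 neuron markers fell. Of the pharynx markers 4 rose there and 3 fell. With all libraries 1 of 7 tested heat shock genes, hsp-70, fell in PHX2193 against HBR2340. Of 8 tested HIF-1 target genes 1, cah-4, rose there. In the other comparisons 0 of either list were called with all libraries. Without N2 B, 1 heat shock gene rose in HBR2340 against N2 and 3 fell in PHX2193 against HBR2340. In each of these comparisons 1 HIF-1 target gene then rose and 1 fell. Of all genes tested, 7.93% rose and 9.8% fell without N2 B in HBR2340 against N2. In PHX2193 against HBR2340 these shares were 17.3% and 15.6%.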

How the data were processed

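RNA-seq gene counts of 12 libraries were used. The authors deposited raw counts per gene, whole numbers with no normalisation, in 1 column per library. Per the submitters' processing notes Bowtie 0.12.2 was used, and the builds WBcel235 (worm) and mm8 (mouse) are named without a role. No source used here names the counting program, its annotation or strandedness, or its treatment of reads with several matches. Symbols and positions came from the Ensembl release 115 annotation of WBcel235. The test was edgeR 4.0.16 under R 4.3.3: filterByExpr by strain (minimum count 10, minimum total 15; 15908 of 46934 genes kept), TMM factors, and a robust quasi-likelihood fit of all 12 libraries with 1 term per strain (9 residual degrees of freedom), two-sided, Benjamini-Hochberg over all genes tested. The SE is the size of the log2 fold change divided by the square root of F. The script was tested on simulated data. Levels are CPM, mean ± SD of 4 libraries. Floors cover counting error only.

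Replicates are biological per the labels. The closest pair of libraries in a strain differed by a chi-square of 15.7 per degree of freedom, so each was counted. The members and gene lists were chosen with earlier results of these data known. Named are all called members, gcs-1, gsr-1, gst-4 and trxr-1, the 3 highest per kb of each family, and called genes of the lists. Other genes were named after their values were seen (gpx-4, gpx-8, gst-1, gst-24, gst-35, gst-42, trx-1, the untested members, those gained without N2 B, tnt-2, unc-54, elt-2). Of the list names, 3 were not found. Other settings were DESeq2 size factors, upper quartile factors, no filter, 10 counts in 4 libraries, DESeq2 1.42.0, limma-voom (limma 3.58.1), only the 8 libraries compared, a replicate block, no robust estimation and each library left out.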

Additional observations from a re-analysis of the deposited data

Results flagged for a closer look

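Among the named members, 99 sets of 4 libraries of 1 strain were searched for a highest or lowest library whose gap to the nearest other, divided by the range, was above Dixon's critical value, and 6 were found. Chance flags about 1 in 20 such groups. Of the 6, 4 were N2 B. It had 102 CPM of gst-36, where the other N2 libraries had 26.8 to 35.04 CPM. It had 17.8 CPM of gsto-1 beside 1.68 to 2.25 CPM, 793 CPM of prdx-2 beside 425 to 473 CPM, and 103 CPM of trx-3 beside 24.7 to 35.8 CPM. In HBR2340, library B had 55.9 CPM of prdx-3, where the others had 52.2 to 52.4 CPM. In PHX2193, library A had 2.15 CPM of gsto-1, where the others had 0.590 to 0.654 CPM. No other library property was tested against these values.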

How the results depend on the processing

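No named member changed direction under another setting in a comparison in which it was called. In comparisons without a call some signs did change, as for trx-3 in PHX2193 against N2, at -0.20 with all libraries and -0.51 to 0.46 under other settings. In HBR2340 against N2, 8 members were called higher with all libraries, 7 to 10 when 1 library was left out, and 10 without N2 B and the D libraries of N2 and PHX2193, where gst-20 lost its call (adjusted p = 0.0898). The call of gpx-5 was lost without N2 A and without HBR2340 B. The 1 member called lower became 0 with no filter and with only the 8 libraries compared, 5 with DESeq2, 2 with limma-voom, and 0 to 6 when 1 library was left out. It became 2 without the D libraries of N2 and PHX2193 and 4 without these and N2 B, settings chosen after seeing the data. The call of trx-3 there was lost without HBR2340 B, C or D. In PHX2193 against N2, the 0 called higher became 1 with DESeq2 and 0 to 1 when 1 library was left out, and the 0 called lower became 2 with DESeq2. In PHX2193 against HBR2340, the 5 called higher became 3 with no filter, 9 with only the 8 libraries compared, 2 without the D libraries and 2 to 8 when 1 library was left out. The 15 called lower became 23 with only the 8 libraries compared and 23 without N2 B and the D libraries, and were 10 to 22 when 1 library was left out. Over all genes tested, 1173 were called in HBR2340 against N2, 58 in PHX2193 against N2 and 3106 in PHX2193 against HBR2340. With DESeq2 the first became 1856 and the second 451, with only the 8 libraries compared the counts became 627, 3 and 5316, and without N2 B they became 2880, 228 and 5339. They became 3035, 131 and 5565 without N2 B and the D libraries, and the second became 4 without the D libraries and 24 with the replicate block. Leaving out 1 library gave 661 to 2880, 7 to 228 and 2237 to 5339. The cause was not tested.

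In their deviations from the strain means, 11 of 12 pairs of same-letter libraries correlated at -0.18 to 0.20, and PHX2193 D with N2 D at 0.66. By the rule that every pair must exceed 0.1 the letters do not pair the samples, and what these D libraries share was not tested. With the replicate block 8 members were called higher and 1 lower in HBR2340 against N2, 0 and 0 in PHX2193 against N2, and 4 higher and 12 lower in PHX2193 against HBR2340. Calls of gst-3, gst-4, gst-23 and gst-26 were lost under it.

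Depth limits gst-14, gst-26 and gst-29, whose lowest libraries held 1, 10 and 4 counts, and leaves 5 members untested. The number of replicates and N2 B limit the comparisons with N2.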
